A study of Mus musculus with 10 samples.

Results

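The transcripts of 10 regulators of mitochondrial and fatty acid metabolism were examined in the left ventricle (LV) of young mice with and without pressure overload. The genes were Ppargc1a, Ppargc1b, Esrra, Esrrb, Esrrg, Ppara, Ppard, Rxra, Tfam and Nrf1. The rows were taken by gene name, and the rule used no measured value, although the genes were proposed with earlier results of these data known. All 10 were found among the 55401 genes in the tables. All 10 were also among the 11867 genes with a mean of at least 1 FPKM, the deposited value per gene, in which fragments are divided by the length of the transcript and the depth of the library. The groups were 5 wild-type (WT) mice with neonatal ascending aorta constriction (nAAC) and 5 WT mice with sham surgery, on a C57BL/6 background. The aorta was constricted in newborn mice, all pups stayed with their mothers, and the LV was collected at 4 weeks of age. No other allele or agent was named for these libraries, each of which came from 1 mouse. Females and males entered both groups.

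PGC-1α and PGC-1β, the products of Ppargc1a and Ppargc1b, are coactivators: they bind no DNA themselves and act through transcription factors that do. In heart muscle they work with the estrogen-related receptors (ERRα, ERRβ and ERRγ, from Esrra, Esrrb and Esrrg), which act on genes of the respiratory chain and the tricarboxylic acid cycle. They also work with the peroxisome proliferator-activated receptors (PPARα and PPARδ, from Ppara and Ppard), which pair with a retinoid X receptor such as RXRα (Rxra) and act on genes of fatty acid uptake and oxidation. Nuclear respiratory factor 1 (Nrf1) and the mitochondrial transcription factor A (Tfam) carry the program to the mitochondrial genome. Fatty acids are the main fuel of the mature heart, and the switch from glucose to fatty acids takes place after birth.

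Of the 10 transcripts, 2 were called different between nAAC and sham LV. Esrrb and Ppard passed the test and were higher in nAAC, and none was lower. The test was limma on log2(FPKM + 1) over all 11867 genes, with a call at a Benjamini-Hochberg adjusted p below 0.05. Over all genes tested, 27.1% were called higher and 4.60% were called lower. The 2 of 10 called higher, with none lower, were thus near the background shares. No regulator reached an absolute log2 fold change (FC) above 1, which 5.91% of all genes tested did together with the adjusted p. The median log2 FC was 0.22 over all genes tested and 0.19 over the 10 regulators. Of 30 listed PPAR target genes, 18 were called lower in the same libraries (60.0%, against 4.60% of all genes tested). That list, like the regulators, was chosen with earlier results of these data known. In whole LV tissue, fewer cells of a type and less RNA per cell cannot be told apart.

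The libraries held features that touch these results. Cardiomyocyte markers were abundant in every library, with summed FPKM from 17662 to 27114 in nAAC and from 18953 to 34028 in sham, and none of the 12 was listed at 0, with 3 called higher and 2 lower. Of the 10 fibroblast markers, 7 (70.0%) were called higher, against 27.1% of all genes tested, and their summed FPKM ran from 1111 to 1764 in nAAC and from 728 to 955 in sham. Macrophage and leukocyte markers summed to between 77.0 and 154.3 FPKM in nAAC and between 42.4 and 86.9 in sham, with 2 of 8 (25.0%) called higher. Of the 8 endothelial markers 2, a share near that of all genes, and of the 8 mural cell markers 5 (62.5%), were called higher. Of the 8 adipocyte markers only Cidea reached the filter on low values, and it was called higher. The other adipocyte markers were not tested, and all of them but Ucp1 had a lower mean in nAAC. Of the 4 tested atrial markers 1, Stard10, was called lower. Myl7, Myl4 and Sln had log2 FC of 0.88, 1.32 and 0.89 and were not called. Myl4 reached 71.1 and 127.7 FPKM in nAAC replicates 2 and 3, against 1.34 to 14.3 in the other nAAC libraries and 1.82 to 17.8 in sham. Sham replicate 4 stood apart from the other sham libraries: its log2 deviations from them fell with transcript length (Spearman's rho -0.66 over 11867 genes). Xist, transcribed from the inactive X chromosome of females, was listed between 14.8 and 17.9 FPKM in 4 nAAC libraries and at 0.023 in the other, replicate 2. In sham it was listed at 3.70 in replicate 4, at 10.6 in replicate 5 and at or below 0.017 in the other 3, so the sexes were unevenly shared between the groups. The part of these features in the results was not tested. For the regulators and the lists of partners, signals and targets, values without sham replicate 4 or with Xist as a covariate are given where they change a call or a direction.

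Esrra was the most abundant of the 10 regulators in both groups, at 34.8 FPKM in sham and 39.6 FPKM in nAAC. FPKM is a value per length, which allows levels of different genes to be set side by side. In sham it was followed by Ppargc1a (11.4), Rxra (9.40), Tfam (7.70), Esrrg (5.84), Ppard (4.78), Ppara (4.51), Esrrb (3.97), Ppargc1b (3.32) and Nrf1 (2.87). Esrra exceeded Ppargc1a, and Tfam exceeded Esrrg, in all 5 sham libraries. Every other pair of neighbours in this order was reversed in at least 1 sham library, so their order was not fixed beyond the spread between mice. In nAAC, Ppard at 7.20 FPKM stood next to Tfam at 7.40, and Esrrb at 6.004 stood above Esrrg at 5.85. Neither of these neighbours was separated by its spread: Tfam was higher than Ppard in 2 of 5 nAAC libraries, and Esrrb was higher than Esrrg in 3 of 5.

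**Figure D1:**
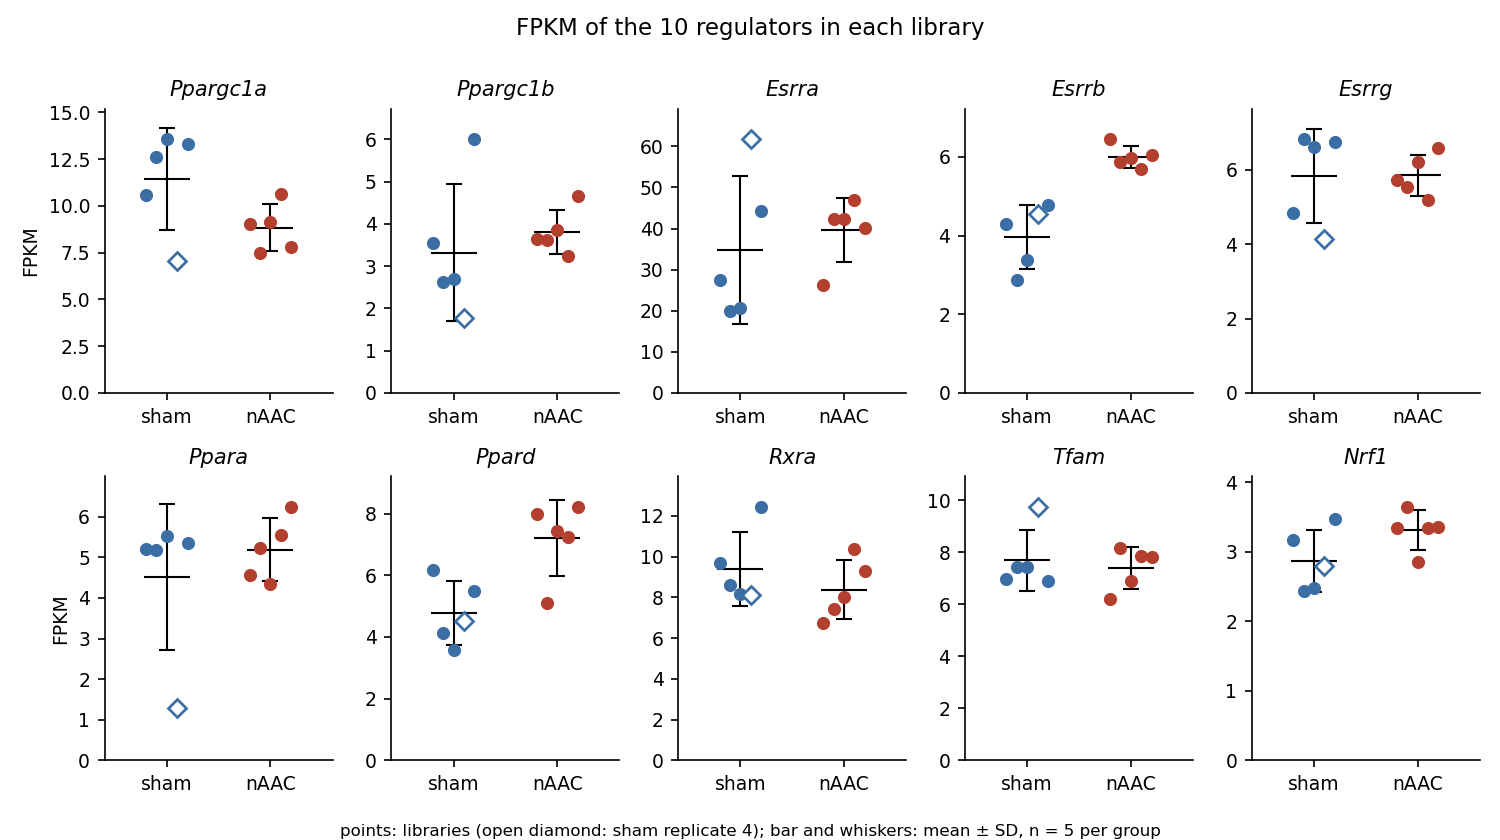
FPKM (vertical axis, from 0) of each of the 10 regulators in the 5 sham and 5 nAAC libraries, 1 point per mouse, with the mean and SD of each group; the open diamond is sham replicate 4. The groups are apart for Esrrb (5.69 to 6.45 in nAAC against 2.86 to 4.77 in sham), and sham replicate 4 is the lowest sham library for Ppara and the highest for Esrra and Tfam.

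Matches to the site of Nrf1, itself one of the 10, were looked for in the promoters of the other regulators, and the stretches of the 2 genes with a match are shown. Windows of 300 bases, from 250 before to 50 after a start annotated by RefSeq on GRCm38.p6, were found for 9 of the 10 genes, as 15 windows. The NRF1 site GCGCATGC, searched on both strands, was found in 2 of these 15 windows (13.3%) and in 2.71% of all 32851 windows. The 2 windows belong to Esrra and Ppara. The share was not particular to the regulators. In the lists used below, the site was found in 15.2% of windows of ERR target genes and 7.14% of those of PPAR target genes. It was found in 13.3% for maintenance and transcription of mitochondrial DNA and in 3.23% for cofactors and partners. Capitals mark the match, and each stretch is read 5′ to 3′ on the strand of its gene.
Esrra, chr19:6921825-6921852, minus strand: cccctgttttGCATGCGCaggccggccc
Ppara, chr15:85735735-85735764, plus strand: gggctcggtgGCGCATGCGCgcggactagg
The match starts 34 bases before the RefSeq start of Esrra and 31 bases before that of Ppara. The gene spans in the deposited tables begin elsewhere: the match in Esrra spans the deposited start, and that in Ppara lies downstream of the deposited start, inside the gene. In Ppara the site is read on both strands, with the 2 readings overlapping. The ETS site CCGGAAG, which the GA-binding protein GABPA recognizes, was found in 1 window, of Tfam (6.67%), and in 8.86% of all windows. The ERR element TCAAGGTCA was found in none of the 15 windows and in 0.423% of all windows. A direct repeat of AGGTCA with 1 base between the copies, which PPAR and RXR bind and which shares AGGTCA with the ERR element, was found in none of them and in 0.0396% of all windows. These are matches of letters within short windows and say nothing of binding.

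Among the coactivators, Ppargc1a (ENSMUSG00000029167, chr5:51454250-51567726 on mm10) was measured at 9.02, 7.47, 9.16, 10.6 and 7.80 FPKM in nAAC replicates 1 to 5 and at 10.6, 12.6, 13.6, 7.03 and 13.3 FPKM in sham replicates 1 to 5. Sham replicate 4 was the lowest of the 10 libraries, while sham replicates 2, 3 and 5 lay above every nAAC library and sham replicate 1 lay just below nAAC replicate 4. The means were 8.82 ± 1.26 in nAAC and 11.4 ± 2.72 in sham (SD, n = 5 each). The log2 FC was -0.32 with a standard error (SE) of 0.17, and the difference did not pass the test (limma adjusted p = 0.162; two-sided exact permutation p = 0.135). Without sham replicate 4 the sham mean was 12.5 ± 1.35 FPKM (n = 4), and Ppargc1a was called lower with a log2 FC of -0.47 (SE 0.12, limma adjusted p = 0.0107, exact permutation p = 0.0238). It was also called lower with median-ratio scaling, which sets the typical gene equal between libraries (log2 FC -0.59, limma adjusted p = 0.0204). Within the libraries with Xist above 1 FPKM, where sham replicate 4 is 1 of the 2 sham libraries, the difference was -0.09 on the log2 scale. Within the others, nAAC replicate 2 at 7.47 FPKM lay below sham replicates 1 to 3, at 10.6 to 13.6.

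Ppargc1b ran from 3.24 to 4.66 FPKM in nAAC and from 1.77 to 6.003 FPKM in sham. The nAAC values lay inside the sham range, whose lowest library was replicate 4 and whose highest was replicate 5. The log2 FC was 0.22 (SE 0.20, limma adjusted p = 0.422), and the sign turned to -0.01 with median-ratio scaling. The third member of the family, Pprc1, which encodes the PGC-1-related coactivator PRC, was called higher. It was measured at 2.54, 2.35, 3.30, 3.93 and 2.79 FPKM in nAAC and at 1.63, 1.39, 1.20, 1.13 and 1.70 FPKM in sham, so every nAAC library lay above every sham library. Its log2 FC was 0.72 (SE 0.13, limma adjusted p = 0.000981), and it was still called with median-ratio scaling (0.52, limma adjusted p = 0.00443).

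Of the ERR genes, Esrrb (ENSMUSG00000021255, chr12:86361117-86521628) was the only one of the 10 whose groups did not overlap. It was measured at 6.45, 5.87, 5.96, 5.69 and 6.05 FPKM in nAAC and at 4.28, 2.86, 3.38, 4.55 and 4.77 FPKM in sham. Every nAAC library lay above every sham library, which held for 18.9% of all genes tested, while 3.46% had every nAAC library below every sham library. The nAAC mice were also close to each other, with a mean of 6.004 ± 0.281 against 3.97 ± 0.810 in sham. The log2 FC was 0.51 (SE 0.12, limma adjusted p = 0.00714), and the exact permutation p of 0.00794 was the smallest that 5 against 5 allows. With median-ratio scaling the log2 FC was 0.27 and no longer passed the test (limma adjusted p = 0.117), nor did it with Xist as a covariate (0.39, limma adjusted p = 0.0826). Within the 4 nAAC and 2 sham libraries above 1 FPKM of Xist, the log2 difference was 0.31. Between the 1 nAAC and 3 sham libraries below it, the difference was 0.62.

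Esrra (chr19:6910977-6921840) was measured at 26.3, 42.4, 42.3, 47.0 and 40.1 FPKM in nAAC and at 27.5, 20.02, 20.6, 61.7 and 44.3 FPKM in sham. The sham libraries fell into 3 low and 2 high ones, the latter being replicates 4 and 5, which also held Xist, and all nAAC libraries lay within the sham range. The log2 FC was 0.29 (SE 0.28, limma adjusted p = 0.447), and 0.53 without sham replicate 4 (limma adjusted p = 0.0863). It was 0.70 and called higher with array weights, which give that library the least weight (limma adjusted p = 0.00746), and 0.0058 with Xist as a covariate. The direction differed with Xist: the log2 difference was -0.45 within the 4 nAAC and 2 sham libraries above 1 FPKM of Xist, and 0.89 between the 1 nAAC and 3 sham libraries below it. The coefficient of variation among sham mice, 51.5%, was the highest of the 10 regulators. The 3′ end of Esrra shares 73 bases with Trmt112 on the opposite strand, which had a mean of 10.1 FPKM and a log2 FC of 0.15 (limma adjusted p = 0.428). Whether strand was used in counting is not given in the sources used here, so reads in that stretch cannot be assigned.

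Esrrg (chr1:187608791-188214885) was level, from 5.19 to 6.59 FPKM in nAAC and from 4.15 to 6.82 FPKM in sham. Its log2 FC was 0.02 with an SE of 0.14 (limma adjusted p = 0.921), and the sign was negative under median-ratio scaling and without sham replicate 4.

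Among the PPAR genes, Ppard (chr17:28232700-28301474) was called higher. It was measured at 7.98, 5.10, 7.44, 7.25 and 8.22 FPKM in nAAC and at 6.16, 4.14, 3.59, 4.53 and 5.495 FPKM in sham. All nAAC libraries but replicate 2 lay above every sham library. The means were 7.20 ± 1.24 and 4.78 ± 1.04 FPKM, the log2 FC was 0.51 (SE 0.15), and the difference passed the test (limma adjusted p = 0.0216, exact permutation p = 0.0238). The call depended on single libraries: the limma adjusted p was 0.0579 without nAAC replicate 5 and 0.0590 without sham replicate 3. With median-ratio scaling the log2 FC was 0.25 (limma adjusted p = 0.240). With Xist as a covariate it was 0.31 (limma adjusted p = 0.223). Within the 4 nAAC and 2 sham libraries above 1 FPKM of Xist, the log2 difference was 0.54. The ranges there, 7.25 to 8.22 FPKM in nAAC and 4.53 to 5.495 FPKM in sham, did not overlap. The nAAC library without Xist, replicate 2, lay within the range of the 3 sham libraries without it.

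Ppara (chr15:85734983-85802819), which encodes the receptor most tied to cardiac fatty acid oxidation, was measured at 4.55, 5.24, 4.35, 5.55 and 6.24 FPKM in nAAC and at 5.21, 5.19, 5.53, 1.297 and 5.34 FPKM in sham. A single library, sham replicate 4, set the spread: the other 4 sham libraries lay within 5.19 to 5.53 FPKM, inside the nAAC range. The log2 FC was 0.25 (SE 0.25, limma adjusted p = 0.460) with that library and -0.04 (SE 0.11) without it.

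Rxra (chr2:27676440-27762957) ran from 6.76 to 10.4 FPKM in nAAC and from 8.10 to 12.4 FPKM in sham, with overlapping groups. Its log2 FC was -0.15 (SE 0.14, limma adjusted p = 0.448). It was called lower with median-ratio scaling (-0.42, limma adjusted p = 0.0155), which lowered Rxra, Esrrb and Ppard by similar amounts. Its paralog Rxrg, the retinoid X receptor of striated muscle, was called lower in the main test. Rxrg was measured at 11.4, 14.7, 12.7, 13.9 and 16.3 FPKM in nAAC and at 23.1, 19.8, 21.7, 35.9 and 27.2 FPKM in sham, and every nAAC library lay below every sham library. The log2 FC was -0.82 (SE 0.16, limma adjusted p = 0.00193), and it was -0.70 without sham replicate 4 (limma adjusted p = 0.00144). Rxrg was thus the more abundant retinoid X receptor on the FPKM scale in both groups, 25.5 ± 6.40 against 9.40 ± 1.82 for Rxra in sham and 13.8 ± 1.89 against 8.38 ± 1.46 in nAAC. The third paralog, Rxrb, had a log2 FC of 0.44 (limma adjusted p = 0.154).

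Tfam (chr10:71225464-71238280) and Nrf1 (chr6:30047988-30153458), which act toward the mitochondrial genome, did not pass the test. Tfam was measured between 6.21 and 8.18 FPKM in nAAC and between 6.89 and 9.76 FPKM in sham, where replicate 4 was the highest and the other 4 lay within 6.89 to 7.44. Its log2 FC was -0.05 (SE 0.12, limma adjusted p = 0.785), and 0.03 without sham replicate 4. With median-ratio scaling it was -0.31 (limma adjusted p = 0.0664). Nrf1 was measured between 2.86 and 3.65 FPKM in nAAC and between 2.44 and 3.47 FPKM in sham. Its log2 FC was 0.16 (SE 0.11, limma adjusted p = 0.274), and -0.07 with median-ratio scaling.

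**Figure D2:**
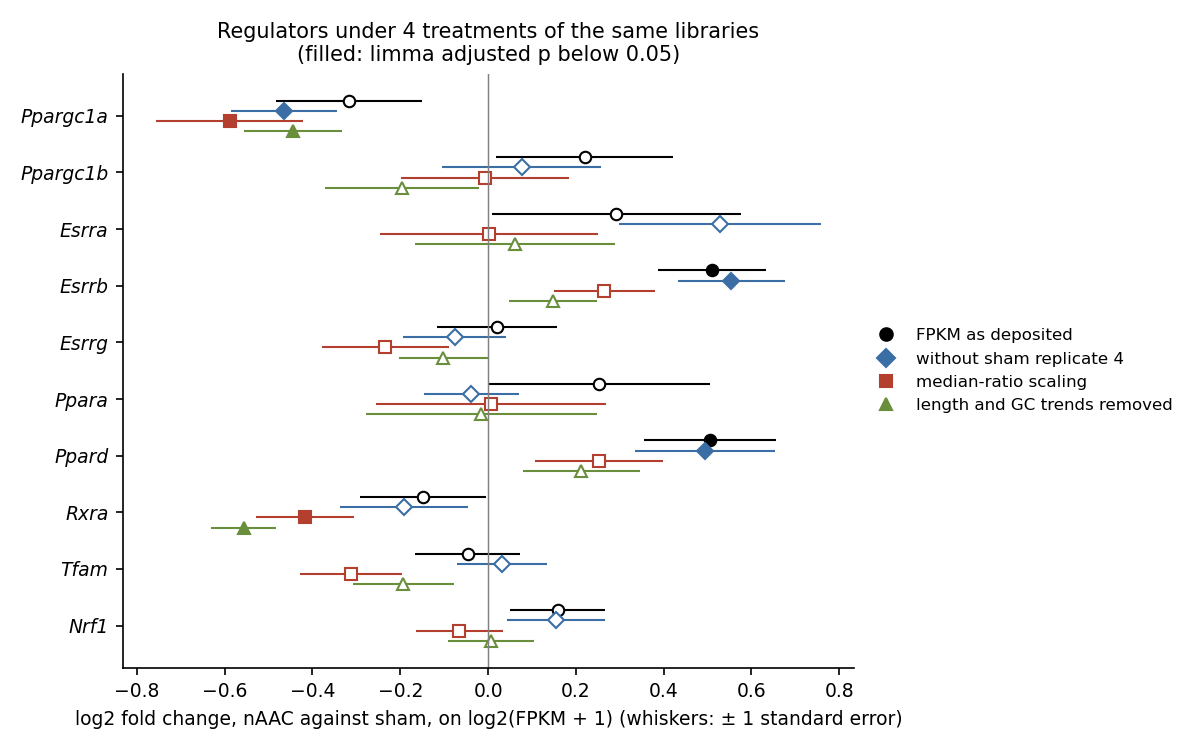
Log2 FC of each regulator, nAAC against sham, on log2(FPKM + 1) (horizontal axis, whiskers ± 1 SE), with FPKM as deposited, without sham replicate 4, with median-ratio scaling and with trends of length and GC content removed; filled points have a limma adjusted p below 0.05. Esrrb and Ppard are filled only with FPKM as deposited and without sham replicate 4, and Ppargc1a is filled in all but the first of the 4.

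The calls among the regulators thus moved with the scaling between libraries. With median-ratio scaling none of the 10 was called higher and 2, Ppargc1a and Rxra, were called lower. Over all genes tested that scaling gave 1488 called higher and 1517 called lower, against 3211 and 546 with FPKM as deposited, and it moved the median log2 FC of all genes from 0.22 to -0.02. Relative to the median gene, Ppargc1a stood at -0.54, Rxra at -0.37, Tfam at -0.27 and Esrrg at -0.20 on the log2 scale, while Esrrb stood at 0.29 and Ppard at 0.28. With both median-ratio scaling and sham replicate 4 left out, which was tried after the values were seen, Ppargc1a (-0.75), Rxra (-0.47), Esrrg (-0.34) and Ppara (-0.30) were called lower. That fit called 16.5% of all genes tested lower.

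Ratios of 2 regulators within a library do not depend on the scaling between libraries. Ppargc1a exceeded Ppargc1b in every library, by 1.67 to 3.28 times in nAAC and 2.22 to 5.05 times in sham, with medians of 2.38 and 3.98. The difference was -0.66 on the log2 scale and did not pass the two-sided exact permutation test (p = 0.0635, Benjamini-Hochberg adjusted over 4 ratios 0.254). The ratio of Ppara to Ppard had a median of 0.759 in nAAC and 0.972 in sham (log2 difference -0.24, exact permutation p = 0.635). Without sham replicate 4, where that ratio was 0.286, the difference was -0.63 (exact permutation p = 0.0476, adjusted over 4 ratios 0.138). The ratio of Esrra to Esrrg had medians of 6.80 in nAAC and 5.68 in sham (log2 difference 0.28, exact permutation p = 0.571), and the difference was 0.63 without sham replicate 4 (exact permutation p = 0.103). That of Tfam to Nrf1 had medians of 2.34 and 2.998 (log2 difference -0.27, exact permutation p = 0.143). None of the 4 ratios differed beyond the spread between mice after adjustment.

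**Figure D3:**
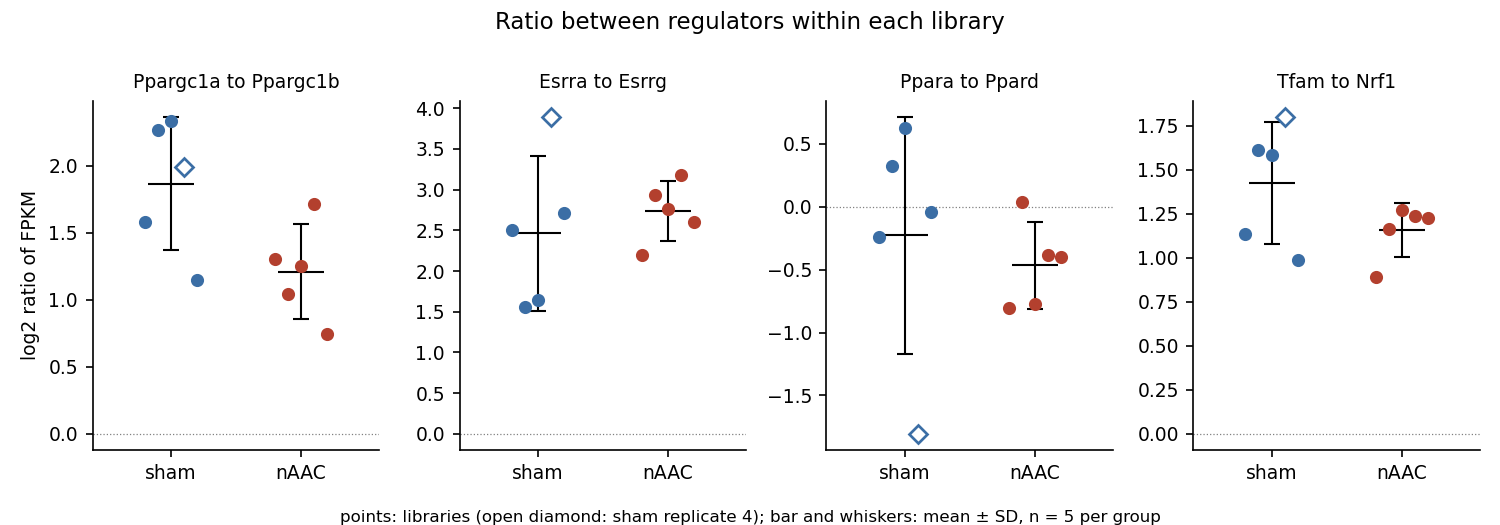
Log2 ratio of the FPKM of 2 regulators within each library (vertical axis, a separate scale for each panel), 1 point per mouse with the mean and SD of each group; the open diamond is sham replicate 4. The groups overlap in all 4 panels, and sham replicate 4 is the extreme sham library for Esrra to Esrrg, Ppara to Ppard and Tfam to Nrf1.

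Partners of the regulators were called in both directions. Of 26 listed cofactors and partners, 4 were called higher (15.4%, against 27.1% of all genes tested) and 3 were called lower (11.5%, against 4.60%), and their median log2 FC was -0.11 relative to all genes tested. With median-ratio scaling the counts were 1 higher and 8 lower (30.8%, against 12.8% of all genes). With Xist as a covariate they were 1 higher and 2 lower, where 13.4% and 3.29% of all genes were called. Besides Pprc1, those called higher included the acetyltransferase gene Kat2a, whose product acetylates PGC-1α (log2 FC 0.53, limma adjusted p = 0.0118). Besides Rxrg, Mef2a and Lpin1 were called lower. Mef2a encodes a muscle transcription factor that works with PGC-1α, and it ran from 17.4 to 23.1 FPKM in nAAC and from 33.2 to 40.5 FPKM in 4 sham libraries, with sham replicate 4 at 20.9 (log2 FC -0.60, limma adjusted p = 0.0160). Lpin1 encodes lipin 1, which coactivates PPARα with PGC-1α, and it was measured at 14.0 ± 0.940 FPKM in nAAC and 19.3 ± 2.91 FPKM in sham (log2 FC -0.43, limma adjusted p = 0.0184). The GA-binding protein genes Gabpa (-0.14) and Gabpb1 (0.22) and the deacetylase gene Sirt1 (-0.18) did not pass the test.

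Among 14 listed upstream signals to PGC-1α, 4 were called higher (28.6%, near the 27.1% of all genes) and 1 was called lower (7.14%, against 4.60%). With median-ratio scaling the counts were 1 and 5, where 12.5% and 12.8% of all genes were called. They were 2 and 1 with Xist as a covariate (13.4% and 3.29% of all genes), and 3 and 1 when sham replicate 4 was left out (33.1% and 5.23%). Both genes of the β subunits of AMP-activated protein kinase (AMPK), the sensor of low cellular energy, were called, in opposite directions. Prkab2 was measured at 30.1, 14.0, 14.8, 12.1 and 11.8 FPKM in nAAC and at 6.07, 5.71, 5.53, 4.37 and 7.25 FPKM in sham. Every nAAC library lay above every sham library, and nAAC replicate 1 was far above the rest. Its log2 FC was 1.298 (SE 0.22, limma adjusted p = 0.000707), and it was 1.03 with median-ratio scaling (limma adjusted p = 0.00600). Prkab1 was measured at 7.21, 9.92, 9.60, 10.99 and 10.05 FPKM in nAAC and at 13.7, 11.8, 13.3, 15.3 and 19.5 FPKM in sham, with every nAAC library below every sham library (log2 FC -0.57, SE 0.15, limma adjusted p = 0.0105). The γ2 subunit gene Prkag2 (0.54, limma adjusted p = 0.00206) and the CREB coactivator gene Crtc1 (0.52, limma adjusted p = 0.0151) were called higher. The genes of the catalytic α subunits did not pass the test, with log2 FC of 0.03 for Prkaa1 and 0.19 for Prkaa2.

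**Figure D4:**
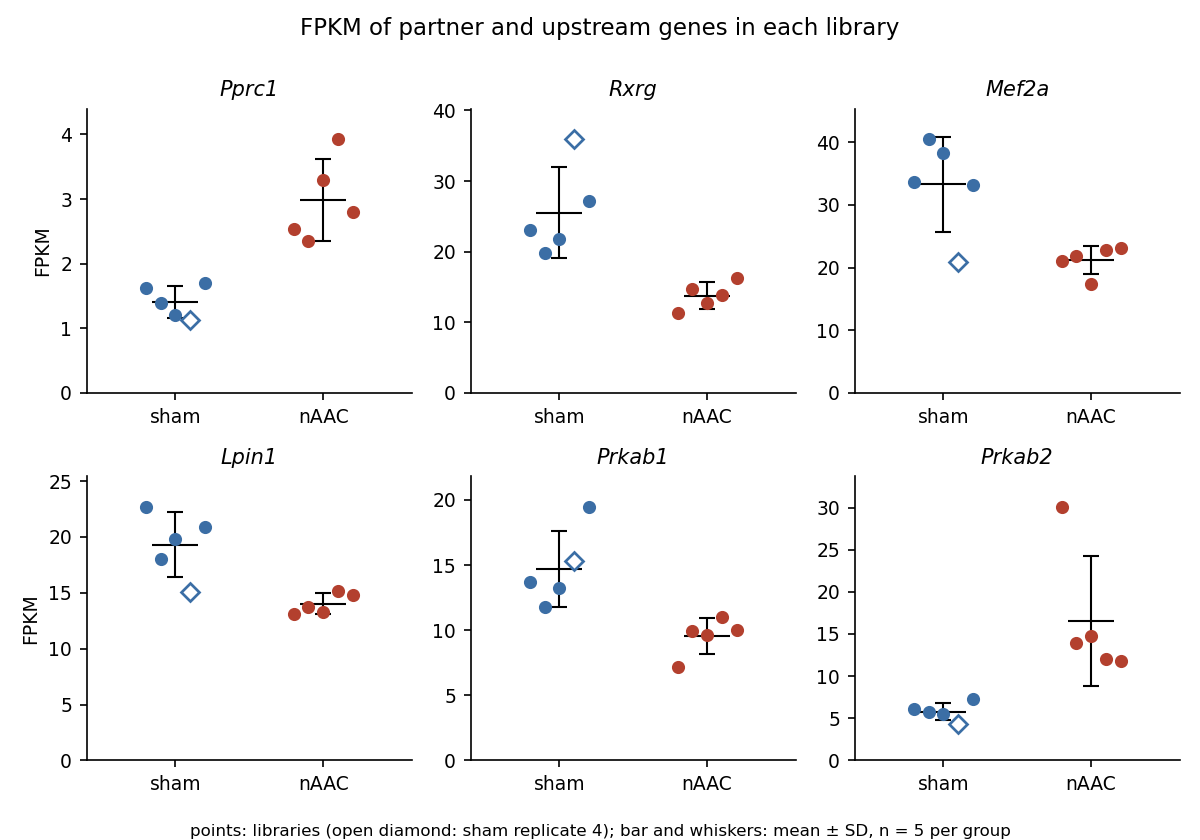
FPKM (vertical axis, from 0) of 6 partner and upstream genes in each library, 1 point per mouse with the mean and SD of each group; the open diamond is sham replicate 4. Every nAAC library lies above every sham library for Pprc1 and Prkab2 and below every sham library for Rxrg and Prkab1, while sham replicate 4 lies inside the nAAC range for Mef2a and Lpin1.

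The listed targets of the regulators were lower as far as they were called. Of 30 PPAR target genes, 18 were called lower (60.0%, against 4.60% of all genes tested) and none was called higher, and 27 had a negative log2 FC. Their median log2 FC was -0.64, which is -0.87 relative to all genes tested. The count of those called lower was 19 without sham replicate 4 (with 1 called higher), 20 with Xist as a covariate and 27 with median-ratio scaling. Of all genes, 5.23%, 3.29% and 12.8% were called lower in these fits, in that order. Among the largest called decreases were those in Ucp3 and Acot1. Acot1, a cytosolic acyl-CoA thioesterase, was measured at 2.25, 2.93, 2.15, 5.73 and 3.01 FPKM in nAAC and at 15.6, 11.1, 15.1, 18.1 and 27.2 FPKM in sham (log2 FC -2.13, SE 0.24, limma adjusted p = 2.47e-05). Ucp3, a mitochondrial uncoupling protein, was measured at 1.92, 2.31, 0.73, 12.9 and 1.72 FPKM in nAAC and at 8.23, 15.2, 8.99, 31.7 and 22.9 FPKM in sham, so that nAAC replicate 4 lay inside the sham range (log2 FC -2.17, SE 0.50, limma adjusted p = 0.00516). Of the genes of mitochondrial β-oxidation, which make up much of the list itself, Decr1 (-0.89), Acadm (-0.69), Hadha (-0.65), Slc25a20 (-0.64) and Cpt2 (-0.49) were among those called, while Acadl (-0.27) and Acadvl (-0.50) did not pass the test. These were chosen from the list after their values were seen. Cpt1b (0.16) and Fabp3 (0.49), the muscle carnitine palmitoyltransferase and the heart fatty acid-binding protein, did not pass the test.

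Fewer ERR target genes were called. Of 28, 4 were called lower (14.3%) and none higher, while 23 had a negative log2 FC and the median was -0.32, or -0.54 relative to all genes tested. With median-ratio scaling 18 were called lower (64.3%, against 12.8% of all genes), and with Xist as a covariate 2 (against 3.29%). With scaling to cardiomyocyte markers 15 were called lower (against 6.03% of all genes). TPM in place of FPKM gave 2 lower and 1 higher, where 2.90% and 41.9% of all genes were called. Without sham replicate 4, 4 were called lower and 1 higher, where 5.23% and 33.1% of all genes were called. Those called with FPKM as deposited were Sdha (log2 FC -0.56, limma adjusted p = 0.0160), Idh3a (-0.56, limma adjusted p = 0.00554), Ndufs1 (-0.51, limma adjusted p = 0.00614) and Cs (-0.51, limma adjusted p = 0.00972). They encode subunits of complex II, isocitrate dehydrogenase and complex I, and citrate synthase. For Idh3a the nAAC libraries ran from 119.6 to 146.6 FPKM and the sham libraries from 174.5 to 234.9 FPKM, without overlap.

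With Xist as a covariate, 0 of 14 tested genes for maintenance and transcription of mitochondrial DNA were called higher and 1 lower, against 13.4% and 3.29% of all genes. With FPKM as deposited, 2 were called higher (14.3%, against 27.1% of all genes) and none lower. They were Lonp1, a protease of the mitochondrial matrix (log2 FC 0.62, limma adjusted p = 0.00690), and Polg, the catalytic subunit of the mitochondrial DNA polymerase (0.43, limma adjusted p = 0.0249). With median-ratio scaling neither was called, and 5 others of the list were called lower (35.7%, against 12.8% of all genes). The mitochondrial RNA polymerase gene Polrmt had a log2 FC of 0.06 (limma adjusted p = 0.726). None of the 13 mRNAs encoded in the mitochondrial genome was called with FPKM as deposited, although all 13 had a negative log2 FC with a median of -0.40. Without sham replicate 4, 7 were called lower, against 5.23% of all genes. With median-ratio scaling 5 were called lower, against 12.8%, and with length and GC trends removed 0. All genes whose name begins with mt-, which take in more than these mRNAs, held 32.8% to 39.9% of TPM, the deposited share of transcripts, in nAAC. In sham they held from 33.7%, in replicate 4, to 49.8%.

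**Figure D5:**
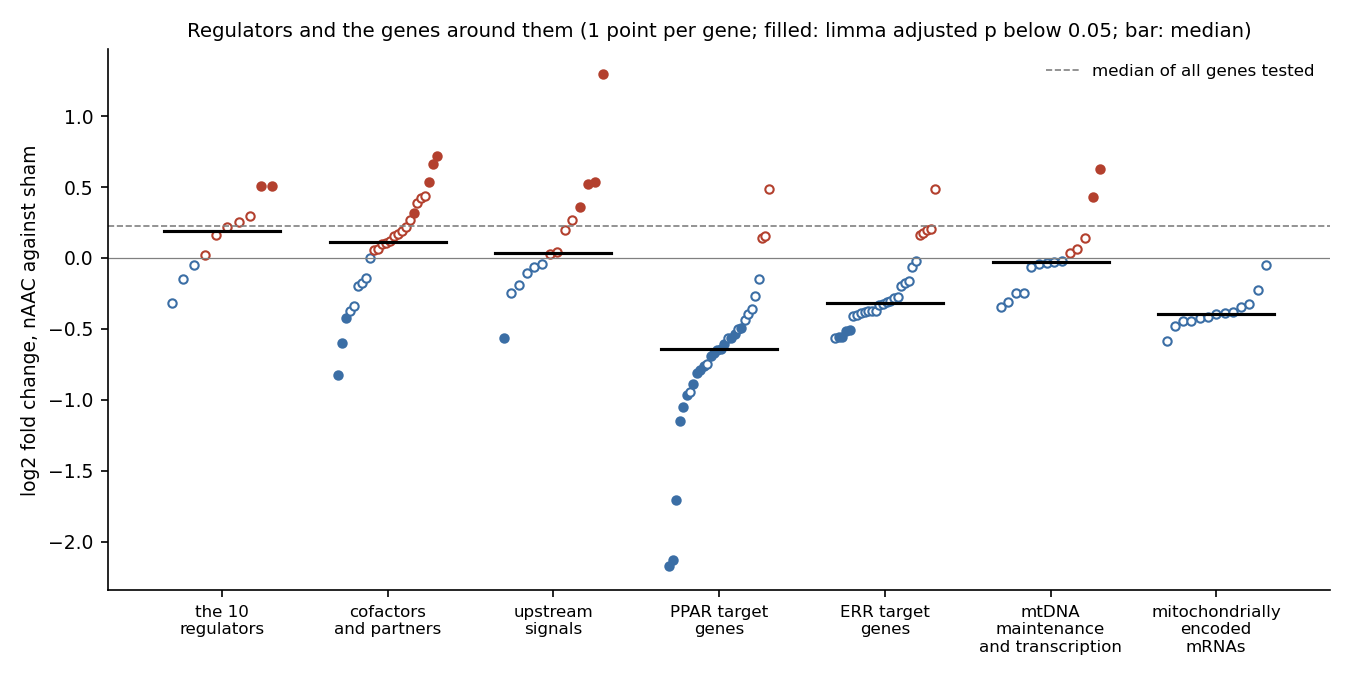
Log2 FC, nAAC against sham, of each gene (1 point per gene, sorted within its list) for the 10 regulators and 6 fixed lists; filled points have a limma adjusted p below 0.05, bars are medians and the dashed line is the median of all genes tested, 0.22. The PPAR targets lie mostly below 0 with a median of -0.64, while the 10 regulators lie between -0.32 and 0.51.

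The genes whose pattern over the 10 libraries came nearest to a regulator were found by the root mean square (RMS) difference of log2(FPKM + 1) after each gene was centred on its mean. For Ppargc1a these included Nsmaf (RMS 0.131) and Wapl (0.138), against a median RMS of 0.446 over all genes. As the nearest genes were picked by RMS, their place below that median was fixed by the choice. The RMS of Ppargc1a from its own mean was 0.299. Nsmaf was measured at 11.2 ± 1.02 FPKM in nAAC and 13.8 ± 2.11 FPKM in sham, with 10.1 FPKM in sham replicate 4, which was low for Ppargc1a too. For Ppara they were Gm38394 (0.114), Ankrd17 (0.132) and Kmt2e (0.141), all with sham replicate 4 as low as 2.43 to 2.83 FPKM. For Esrra they included Sdr39u1 (0.1004) and the ribosomal protein gene Rps9 (0.107), which in sham replicate 4 reached 381 FPKM against a sham mean of 215. For Tfam they were Cetn2 (0.0513), Snu13 (0.0590) and Afg1l (0.0679). The RMS of a regulator from its own mean was 0.446 for Ppara, 0.502 for Esrra and 0.149 for Tfam, which varied little.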

How the data were processed

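LV tissue of 5 nAAC and 5 sham WT mice was taken at 4 weeks of age, RNA was extracted with Trizol and libraries were made with a NEBNext Ultra kit, 1 per mouse. The authors deposited 1 gene table per mouse, in the column layout of StringTie. The deposited coverage is the mean read depth over the bases of a gene. For the deposited FPKM, the authors' tool divided coverage by sequenced depth. For the deposited TPM, the authors rescaled each table to 1 common total. The build was mm10 in the submitters' processing notes. The aligner, the quantification tool and the use of strand are not given in the sources used here. Gene coordinates equalled those of GENCODE M21 for 54821 of 55141 shared genes. Groups were taken from the sample titles.

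Rows of the same gene ID were summed. Read counts are not in the tables, so no counting error was computed, and errors are the spread between mice. Sequenced depth, estimated from the ratio of coverage to FPKM, was 4.86 to 6.82 gigabases in nAAC and 5.06 to 5.24 in sham. Genes below a mean of 1 FPKM were left out, and log2(FPKM + 1) of the other 11867 was tested with limma 3.58.1 in R 4.3.3 (empirical Bayes trend, Benjamini-Hochberg adjustment over all of them, threshold 0.05). Fold changes are on this scale, which understates those of low genes. The procedure was run on simulated data with the mean and spread of each gene. Those data held no deviation of a whole library, such as that of sham replicate 4, so they cannot speak to calls under it. Single ratios were tested by two-sided exact permutation, for which the smallest p is 0.00794. Alternatives were 21 other fits (scaling, filter, pseudocount, covariates, weights and each library left out) and 1 added after the values were seen. Named genes were the 10 regulators, the 3 largest called increases and decreases of each of 13 lists, the 3 nearest patterns and overlapping genes. Other genes of the lists that are named were chosen after their values were seen. Some genes that this rule takes are not reported here. The regulators and lists were chosen with earlier results of these data known. Motif searches used RefSeq promoter windows of GRCm38.p6.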

Additional observations from a re-analysis of the deposited data

Results flagged for a closer look

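In 7 of 124 groups of 5 values, 1 library lay further from its nearest neighbour than Dixon's criterion allows at 5 samples (a gap above 0.71 of the whole range of the group), where chance gives about 6.2. Sham replicate 4 was the lowest sham library for Ppara, with a gap of 0.949 of the range, and the highest for Tfam, with a gap of 0.784. nAAC replicate 1 was the lowest nAAC library for Esrra (0.724), for the ratio of Tfam to Nrf1 (0.718) and for the cardiomyocyte marker Tnni3 (0.874), and the highest for Prkab2 (0.762). nAAC replicate 2 was the lowest nAAC library for Ppard (0.730).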

How the results depend on the processing

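Of 220 log2 FC of the 10 regulators under the alternatives, 171 kept their direction and their side of the threshold. With median-ratio scaling the signs of Ppargc1b (-0.0069), Esrrg (-0.23) and Nrf1 (-0.065) turned, 0 regulators were called higher and 2 lower. With upper-quartile scaling Esrrg (-0.21) and Nrf1 (-0.041) turned, with 0 called higher and 2 lower. With length and GC trends removed Ppargc1b (-0.20), Esrrg (-0.10) and Ppara (-0.016) turned, with 0 called higher and 2 lower. The 2 called lower were Ppargc1a and Rxra in each of these. Of all genes, 12.8%, 11.5% and 14.6% were called lower under these alternatives, in the order given, and 12.5%, 13.7% and 15.4% higher. With scaling to cardiomyocyte markers Esrrg was -0.070 and 1 regulator was called higher, against 18.3% of all genes. With array weights Esrrg was -0.024 and Tfam 0.031, 3 regulators (Esrra, Esrrb and Ppard) were called higher and 1, Ppargc1a, lower. That fit called 48.0% of all genes higher and 6.37% lower. TPM in place of FPKM gave 0.0065 for Rxra and 0.11 for Tfam. Without a filter on low values, and at an adjusted p below 0.01, 1 regulator was called higher, and with Xist as a covariate or an absolute log2 FC above 1 required, 0 were. Of all genes, 11.6% were called higher without the filter and 13.4% with Xist as a covariate. With median-ratio scaling and no sham replicate 4, Ppargc1b (-0.16), Esrrg (-0.34), Ppara (-0.30) and Nrf1 (-0.079) were negative, with 0 called higher and 4 lower. The shares of all genes there were 15.6% and 16.5%.

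With 1 library left out at a time, Esrrg ran from -0.076 to 0.074, Ppara from -0.038 to 0.34 and Tfam from -0.080 to 0.032. Between 1 and 3 regulators were called higher and between 0 and 1 lower, the latter only without sham replicate 4. The third called higher was Ppargc1b without sham replicate 5 (limma adjusted p = 0.0468). In the fits with 1 library left out, 20.2% to 33.1% of all genes were called higher and 3.59% to 5.23% lower. The log2 difference in the ratio of Ppargc1a to Ppargc1b ran from -0.83 to -0.54, with an exact permutation p of 0.0238 without sham replicate 5 and 0.0476 without nAAC replicate 4. That of Ppara to Ppard ran from -0.63 to -0.024 and that of Esrra to Esrrg from 0.049 to 0.63. Of 624 counts of called genes in the lists, 497 stayed within 1.5 times. The replicate block gave 2929 genes called higher and 497 lower, and the same calls for the 10 regulators. Same-numbered nAAC and sham libraries correlated between -0.32 and 0.19 in their deviations, and 1 of 10 libraries correlated best with its own number, so the numbers were not taken as pairs. The causes of these shifts were not tested. The standard errors of the regulators' log2 FC ran from 0.11 to 0.28, and no detection limit was computed.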
